A study of Callithrix jacchus with 39 samples.

Results

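SNURF and other genes that are imprinted in humans and mice were followed through marmoset embryos and embryonic stem cells (ESCs). The members were the rows of the deposited count table whose marmoset gene ID carries the symbol SNURF, IGF2, PEG3, PEG10, MEST, DLK1, GRB10, PLAGL1, NNAT or NDN. Of these 10 symbols, 7 had counts, among 30811 gene IDs in all: SNURF (ENSCJAG00000003753), IGF2 (ENSCJAG00000018424), PEG3 (ENSCJAG00000010044), PEG10 (ENSCJAG00000033086), MEST (ENSCJAG00000010760), GRB10 (ENSCJAG00000011054) and NDN (ENSCJAG00000003738). DLK1, PLAGL1, NNAT and a second gene ID with the symbol SNURF were not analysed here. All 7 genes passed the low-count filters of the main fits. In embryos PEG10 was left untested in some alternative settings. Epiblast against ICM, for example, had 23 of these for PEG10 and 26 for SNURF.

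The species is the common marmoset (Callithrix jacchus), and poly(A)+ RNA was sequenced in 39 libraries, 13 groups of 3. Embryo groups were morulae, the epiblast of postimplantation embryos, and 5 stages of the inner cell mass (ICM, the cells of the blastocyst that form the embryo proper), called early, blastocyst, expanded, hatching and hatched ICM here. ESC groups were primed cells of the lines DSY127 and No.40, primed DSY-c2 cells marked Tg, naive DSY-c2 cells marked TgON, primed N40 cells marked Tg, and naive N40 cells marked TgOFF. What Tg stands for is not defined in the labels, and the ON and OFF states cannot be told apart from the cell line. They also do not say whether DSY-c2 was made from DSY127 or N40 from No.40. They give no culture medium, passage, embryo age or number of embryos per library. Whether libraries of 1 group had different cultures or embryos as their source is not said either, and p-values therefore measure only how these libraries spread.

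An imprinted gene is transcribed mainly from the copy inherited from the mother or from the father, according to DNA methylation laid down in the germ line. Of the genes followed here, SNURF, IGF2, PEG3, PEG10, MEST and NDN are paternally expressed in humans and mice, while the parental copy used by GRB10 depends on the tissue. Naive cells resemble the preimplantation epiblast and have low global DNA methylation, and loss of imprints is a known concern in naive human cultures. The counts add both parental copies, so levels are described here, and imprinting itself was not measured.

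Library totals were 38.8 to 78.7 M counts (mega, 1e6) in ESCs and 45.3 to 59.0 M in embryos. Levels are counts per 1 M library counts (CPM) after TMM scaling, which removes differences in library composition. Values per library were scaled within ESCs or within embryos, as in the tests of those libraries, and statements that set ESCs beside embryos use a scale shared by all 39. A gene was called changed at an adjusted p under 0.05 in edgeR's quasi-likelihood test over all genes. The labelled states were checked with 8 naive markers, whose summed level was 3232 to 4584 CPM in naive ESC libraries and 265 to 1400 CPM in primed ones. The names of the run columns carried L6 and L7 for the 3 DSY-c2 primed libraries, DSY-c2 naive replicates 1 and 2 and No.40 replicate 1, and L1 and L2 for the other 33 libraries.

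SNURF, which encodes a small protein from the same bicistronic locus as the splicing protein SNRPN, was higher in every ESC library than in any embryo library. In embryos it was lowest in morulae, at 17.0, 10.4 and 18.96 CPM, and was 29.0, 25.5 and 23.2 CPM in early ICM. It was 26.6, 53.8 and 32.5 CPM in blastocyst ICM, 43.8, 51.7 and 25.5 CPM in expanded ICM, 51.9, 79.5 and 49.5 CPM in hatching ICM and 30.5, 54.7 and 63.4 CPM in hatched ICM. The 3 early ICM libraries lay above the 3 morulae, and the later ICM stages overlapped each other. The difference between early ICM and morula was not called (log2 fold change 0.75, adjusted p = 0.235 in edgeR's test). Epiblast held 40.1, 40.1 and 36.7 CPM, inside the range of the ICM libraries.

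In ESCs, SNURF was 164, 179 and 166 CPM in DSY127 and 144, 195 and 229 CPM in No.40. It was 378, 279 and 349 CPM in primed DSY-c2 cells (replicates 2, 4 and 5) and 219, 201 and 220 CPM in naive DSY-c2 cells. N40 held 252, 225 and 248 CPM when primed and 167, 196 and 232 CPM when naive. Primed DSY-c2 was above every other group, and primed and naive N40 overlapped through naive replicate 3 and primed replicate 2. On the shared scale the order of means ran from DSY-c2 primed (315 CPM) through N40 primed (235), DSY-c2 naive (186), N40 naive (174), No.40 (172) and DSY127 (152) to hatching ICM (65.5). Below it came hatched ICM (54.1), expanded ICM (43.5), epiblast (43.1), blastocyst ICM (40.8), early ICM (27.9) and morula (16.5). Neighbours in this order did not overlap at 4 of 12 places: DSY-c2 primed from N40 primed, N40 primed from DSY-c2 naive, DSY127 from hatching ICM, and early ICM from morula.

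**Figure D1:**
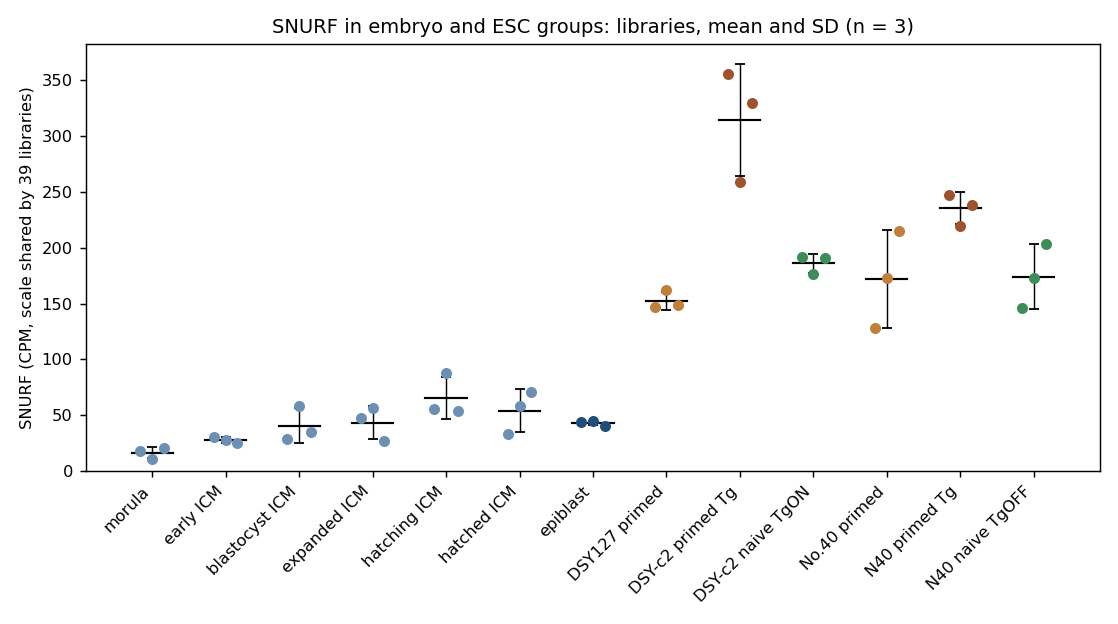
SNURF in 13 groups. The vertical axis is CPM on the scale shared by 39 libraries, points are libraries (3 per group), and lines and bars are the mean and SD. All ESC libraries sit above all embryo libraries, with means of 152 to 315 CPM in ESC groups and 16.5 to 65.5 CPM in embryo groups.

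The gap between ESCs and embryos was tested against chosen embryo stages in one fit of all libraries. In every comparison of ESCs with embryos here, cultured or embryo material and cell state cannot be told apart. SNURF was 1.91 higher on the log2 scale in primed DSY127 and No.40 cells than in epiblast (SE 0.27, adjusted p = 1.66e-06). It was 1.60 higher in naive cells than in hatching and hatched ICM (SE 0.20, adjusted p = 1.80e-07). SNRPN, whose gene span contains that of SNURF in the RefSeq annotation of calJac240_pri, gave differences of -0.21 (SE 0.26, adjusted p = 0.577) and -0.36 (SE 0.22, adjusted p = 0.169) in the same comparisons. Fewer cells of a type and less RNA per cell cannot be told apart in these bulk libraries.

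The share of SNURF in the summed counts of SNURF and SNRPN, which does not depend on the scaling, was 40.7% to 56.7% in the 21 embryo libraries and 74.4% to 86.8% in the 18 ESC libraries. It averaged 82.5% ± 1.13 (SD, n = 6) in DSY127 and No.40 against 52.0% ± 0.876 (SD, n = 3) in epiblast, and 79.4% ± 3.28 (SD, n = 6) in naive cells against 50.1% ± 2.94 (SD, n = 6) in hatching and hatched ICM. The share was chosen after its values had been seen, so this gap is given without a test. Conversion moved the share little: group means were 84.1% primed and 82.2% naive in DSY-c2, and 77.0% and 76.6% in N40. How reads in sequence common to both genes were assigned is not given in the sources used here, and the part of read assignment in this gap was not tested.

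**Figure D2:**
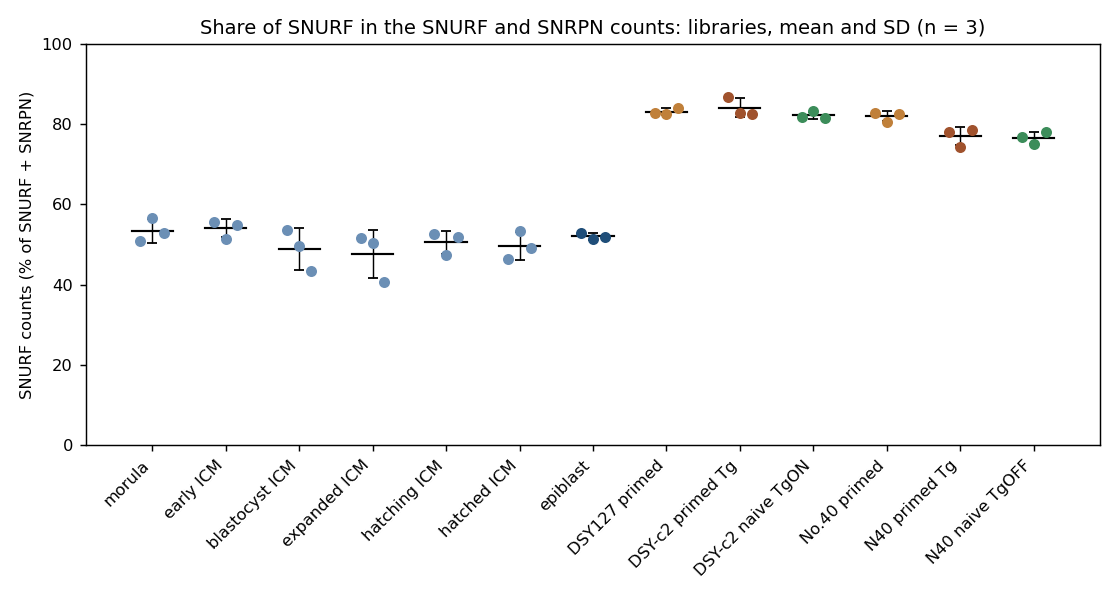
SNURF counts as a percent of SNURF and SNRPN counts in each library. Points are libraries, lines and bars the group mean and SD (n = 3). Embryo libraries lie between 40.7% and 56.7% and ESC libraries between 74.4% and 86.8%, with no overlap.

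With conversion, most of the members fell in both lines. In DSY-c2, 0 members rose and 5 of 7 fell from primed to naive, where 58.8% of all genes tested were called and 29.3% fell. In N40, 1 rose and 5 fell, where 61% of all genes were called and 28.7% fell. The median log2 fold change of the members was -1.28 in DSY-c2 and -0.97 in N40, beside 0.03 and 0.09 over all genes. PEG10, MEST, PEG3 and NDN fell in both lines. In DSY-c2, SNURF fell by 0.65 in log2 units (SE 0.15, adjusted p = 0.00126), with all 3 naive libraries under all 3 primed ones. In N40 its difference was -0.29 (SE 0.15, adjusted p = 0.104), and it passed the threshold in 5 alternatives, at adjusted p = 0.0239 to 0.0464. The difference between the SNURF effects of the lines was -0.37 (SE 0.21, adjusted p = 0.264). SNRPN fell by 0.45 in DSY-c2 (adjusted p = 0.0268) and gave -0.26 in N40 (adjusted p = 0.18). Without DSY-c2 naive replicate 3, which leaves only libraries with L6 and L7 columns, SNURF fell by 0.69 (adjusted p = 0.00458). The DSY-c2 call of SNURF ended in the fit of all 39 libraries (-0.76, adjusted p = 0.0877).

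**Figure D3:**
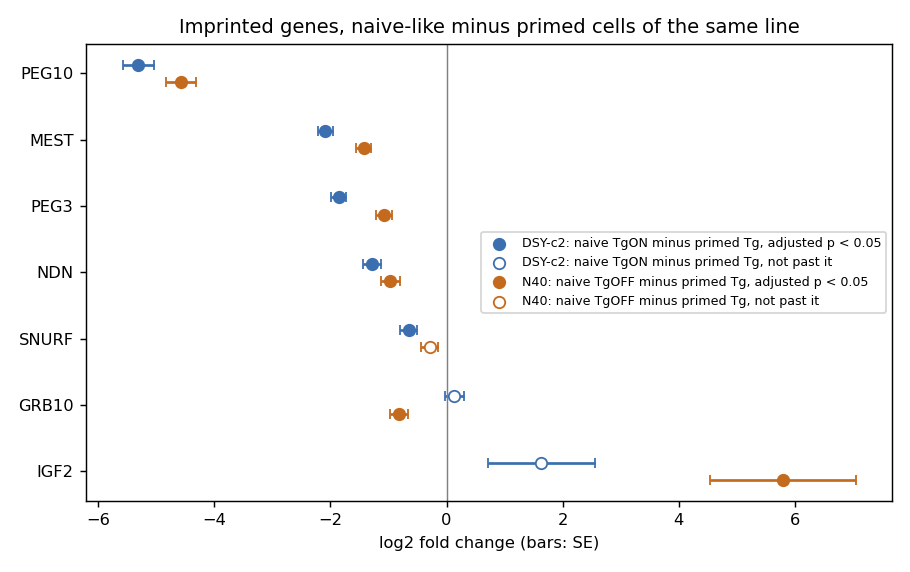
Change of 7 imprinted genes from primed to naive cells. The horizontal axis is the log2 fold change in DSY-c2 and N40, bars are the SE, and filled points passed an adjusted p of 0.05. PEG10 lies near -5 in both lines, MEST, PEG3 and NDN below 0 in both, and IGF2 above 0 with wide bars.

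PEG10, a gene derived from a retrotransposon and needed for the placenta in mice, fell most. It was 64.5, 43.9 and 70.4 CPM in primed and 1.61, 1.47 and 1.44 CPM in naive DSY-c2 cells, a fall of 5.30 on the log2 scale (SE 0.27, adjusted p = 4.18e-10). In N40 it was 85.0, 61.3 and 85.5 CPM primed and 2.61, 3.63 and 3.49 CPM naive, a fall of 4.57 (SE 0.25, adjusted p = 6.25e-10). The groups were far apart, and the primed lines DSY127 and No.40 lay with the primed Tg cells, at 42.9 to 83.4 CPM. Embryos hardly held the transcript: 16 of 21 embryo libraries had 0 counts, and 15 ICM libraries had 4 counts in all. Morula replicate 1 had 17 counts, and epiblast had 100, 0 and 142. The naive cells thus had a low level, 279 counts in 3 DSY-c2 and 675 in 3 N40 libraries, beside 4 counts in the 6 hatching and hatched ICM libraries.

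Genes beside PEG10 in the RefSeq gene order of calJac240_pri were read as well, a window of 8 protein-coding genes on each side chosen after the values had been seen. Apart from PEG10 itself, 9 of its genes were tested. In DSY-c2, 5 of these 9 fell and 1 rose, and in N40, 6 fell and 2 rose, where 29.3% and 28.7% of all genes fell. In a like window around SNURF only 5 of 17 genes were tested. The 4 other than SNURF were SNRPN, NDN, CHRNA7 and OTUD7A. NDN is itself a member, and the span of SNRPN contains that of SNURF. Of these 4, SNRPN, NDN and CHRNA7 fell in DSY-c2, and NDN and CHRNA7 in N40, with 0 higher. SGCE, the paternally expressed sarcoglycan gene next to PEG10, fell by 4.27 in DSY-c2 (adjusted p = 3.58e-09) and by 2.83 in N40 (adjusted p = 6.99e-08). PPP1R9A, on the other side and maternally expressed in some tissues, fell by 1.98 and 2.91. TFPI2, a maternally expressed protease inhibitor gene 7 places away, fell by 4.59 and 5.21. CASD1 and PON2 in the same window fell by 0.82 to 1.39. SLC25A13, at 1 end of the window, rose by 0.35 and 0.65. COL1A2, a mesenchyme collagen gene that lies between CASD1 and TFPI2, rose by 2.10 in N40 and gave 0.23 in DSY-c2 (adjusted p = 0.778), so the falls did not form an unbroken stretch. The parental copies that changed were not measured.

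MEST, a hydrolase-family protein abundant in mesoderm, was 405, 444 and 447 CPM in primed and 129, 92.9 and 83.7 CPM in naive DSY-c2 cells. It was 507, 565 and 607 CPM in primed and 219, 186 and 219 CPM in naive N40 cells. Primed and naive libraries did not overlap in either line, with falls of 2.08 (SE 0.14, adjusted p = 4.06e-09) and 1.43 (SE 0.13, adjusted p = 1.35e-07) on the log2 scale. PEG3, a zinc-finger protein of growth and cell death pathways, went from 1753, 1492 and 1777 CPM to 543, 411 and 431 CPM in DSY-c2. It went from 453, 428 and 504 CPM to 179, 250 and 228 CPM in N40. Its falls were 1.86 (SE 0.13, adjusted p = 1.19e-08) and 1.08 (SE 0.13, adjusted p = 2.73e-06), again without overlap. PEG3 in naive DSY-c2 cells overlapped that in primed N40 cells.

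NDN, which encodes necdin, a growth-restraining protein of neurons from the same chromosome region as SNURF, was 16.3, 17.1 and 16.1 CPM in primed and 6.63, 7.57 and 6.20 CPM in naive DSY-c2 cells. It was 10.1, 11.2 and 11.4 CPM primed and 6.10, 5.20 and 5.43 CPM naive in N40. It fell by 1.28 (SE 0.16, adjusted p = 4.78e-06) and 0.97 (SE 0.16, adjusted p = 6.98e-05). Both of these calls ended in the fit of all 39 libraries, at adjusted p = 0.0529 and 0.109. The summed level of 5 neural markers moved with these falls, from 828 to 921 CPM in primed to 129 to 223 CPM in naive DSY-c2 libraries, and from 856 to 882 CPM to 188 to 234 CPM in N40. The part of neural-marked cells in the falls was not tested. UBE3A, the maternally expressed ubiquitin ligase of the same domain, rose by 0.62 in DSY-c2 (adjusted p = 3.21e-07) and by 0.89 in N40 (adjusted p = 5.11e-09).

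GRB10, an adaptor that dampens insulin and growth factor signalling, differed between the lines. It was 78.0, 107 and 95.7 CPM in primed and 84.0, 125 and 98.9 CPM in naive DSY-c2 cells, which overlap (log2 fold change 0.14, SE 0.16, adjusted p = 0.485). In N40 it fell from 50.2, 54.9 and 65.0 CPM to 35.7, 26.7 and 34.3 CPM, without overlap, by 0.82 (SE 0.16, adjusted p = 3.28e-04). The difference between these effects was 0.95 (SE 0.23, adjusted p = 0.0102), a call that ended in the fit of all 39 libraries (adjusted p = 0.906). PEG3 and MEST fell further in DSY-c2 than in N40, by differences of -0.78 (SE 0.18, adjusted p = 0.00981) and -0.66 (SE 0.18, adjusted p = 0.0246). These were 3 of 7 members, where 15.1% of all genes had a called difference, with a median of -0.66 beside -0.05 over all genes. The PEG3 and MEST calls also ended in that fit, both at adjusted p = 1. The PEG3 call ended without DSY-c2 naive replicate 2 (-0.64) or without N40 naive replicate 2 (-0.60). The MEST call ended when any of these 12 libraries was left out alone, other than DSY-c2 naive replicate 1, N40 primed replicate 3 and N40 naive replicate 2, at -0.45 to -0.65.

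IGF2, the fetal growth factor, was low in all ESC groups. It was 1.58, 1.35 and 0.66 CPM in primed and 4.73, 5.50 and 0.94 CPM in naive DSY-c2 cells (log2 fold change 1.63, SE 0.92, adjusted p = 0.143), with overlap through naive replicate 3. In N40 the 3 primed libraries had 2, 2 and 6 counts and the naive ones 328, 76 and 114 counts. The N40 rise was 5.80 on the log2 scale (SE 1.25, adjusted p = 9.12e-04), a value that rests on those 10 primed counts. The 4 trophectoderm markers rose with it in N40, 4 of 4 being called, from sums of 6.53 to 8.33 CPM to 52.0 to 92.4 CPM, with CDX2 at 0 in the primed libraries. Of 6 mesenchyme markers 4 rose and 1 fell there, and of 7 primitive endoderm markers 3 rose and 1 fell, where 32.3% of all genes rose. The median sums of these 2 lists were lower in naive N40 cells, 204 against 605 CPM and 207 against 1205 CPM. The part of any such cells in the IGF2 rise was not tested. DSY127 held 3.94, 3.94 and 29.9 CPM and No.40 2.05, 12.6 and 3.10 CPM, so 1 library stood far above the others in each. DSY127 replicate 3 also had the highest summed level of 7 primitive endoderm markers in its group, 2758 CPM against 1363 and 1199, while 6 mesenchyme markers summed to 1584 CPM there, between the 2376 and 961 CPM of the others. In No.40 the library with the highest IGF2, replicate 2, had a primitive endoderm sum of 1075 CPM, below the 2080 CPM of replicate 1. The part of such cells in the IGF2 levels of these libraries was not tested.

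Primed cells of the different lines were compared next. Between DSY127 and No.40, 0 of 7 members were called by edgeR's quasi-likelihood test and 0 had an unadjusted p under 0.05. DESeq2 also called 0, where it called 8.6% of all genes. The edgeR test called 4.47% of all genes. The median of the members was -0.07 beside -0.01 over all genes. Primed DSY-c2 cells differed from DSY127 in 2 of 7 members, both higher, where 1.88% of all genes were called and 0.156% were higher. SNURF was 0.98 higher on the log2 scale (SE 0.15, adjusted p = 0.00194) and PEG3 0.82 higher (SE 0.13, adjusted p = 0.00253), and neither group pair overlapped. Libraries of IGF2, MEST and NDN did not overlap either, without a call, and how many of all genes lay apart in this way was not counted. SNRPN was 0.87 higher (adjusted p = 0.00944). The median of the members was -0.05 beside 0.00. The SNURF call ended in the fit of all 39 libraries (1.04, adjusted p = 0.0958), as did that of PEG3 (0.88, adjusted p = 0.823). All 3 DSY-c2 primed libraries came from L6 and L7 columns and all 3 DSY127 libraries from L1 and L2. The line and whatever these L numbers mark therefore cannot be told apart.

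Primed N40 cells differed from No.40 in 3 of 7 members, all lower, where 21.9% of all genes were called and 13.6% were lower. IGF2 was lower by a log2 fold change of -7.02 (SE 1.28, adjusted p = 0.00159), again against 10 counts in N40. GRB10 was lower by a log2 fold change of -1.10 (SE 0.16, adjusted p = 2.81e-04) and PEG3 by one of -0.97 (SE 0.13, adjusted p = 1.59e-04). The median of the members was 0.10 beside -0.05. Without No.40 replicate 1, the only library of this pair with L6 and L7 columns, the same 3 were called, at -7.33, -1.05 and -0.96. In the fit of all 39 libraries none of the 3 passed the threshold, with adjusted p = 0.0541 for IGF2, 0.0942 for GRB10 and 0.339 for PEG3. Without No.40 replicate 3, SNURF was called higher (0.62, adjusted p = 0.00863), as was NDN (0.51, adjusted p = 0.019). SNRPN was 0.79 higher in primed N40 than in No.40 with all ESC libraries in the fit (adjusted p = 0.00327). In N40 the summed mesenchyme markers were 501 to 776 CPM against 1148 to 2242 CPM in No.40, and in DSY-c2 300 to 388 CPM against 961 to 2376 CPM in DSY127. Their part in these differences was not tested.

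In embryos, 6 of 7 members varied over the 7 stages, where 38% of all genes did. NDN was the exception (adjusted p = 0.117), and PEG10 was counted among the 6 with 0 counts in 16 of 21 embryo libraries. From morula to early ICM, 2 of 7 members fell and 0 rose, where 6.16% of all genes were called and 2.27% fell. PEG3 went from 44.9, 45.2 and 28.8 CPM to 4.02, 4.71 and 15.3 CPM, a fall of 2.31 (SE 0.48, adjusted p = 0.00817). GRB10 went from 133, 197 and 177 CPM to 95.6, 71.5 and 32.6 CPM, a fall of 1.34 (SE 0.37, adjusted p = 0.0375). The stages did not overlap for either gene. With only these 6 libraries in the fit both calls ended (adjusted p = 0.12 and 0.135), where 1.64% of all genes were called. The GRB10 call also ended when any of these libraries other than early ICM replicate 1 was left out alone. The median of the 6 members other than PEG10 was -0.88, beside 0.00 over all genes.

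IGF2 was 153, 90.5 and 27.8 CPM in morulae and 50.5, 47.9 and 34.4 CPM in early ICM. In the 3 next stages it lay between 0 and 8.02 CPM, with 0 counts in blastocyst ICM replicate 3 and expanded ICM replicate 2. Hatched ICM held 88.7, 1.51 and 1.14 CPM, so replicate 1 stood apart. This library also had the highest sums in its group of 7 primitive endoderm markers (6150 CPM against 1656 and 2558) and of 4 trophectoderm markers (1356 CPM against 217 and 526), 2 tissues of the blastocyst that are not epiblast. Its 6 mesenchyme markers summed to 0.165 CPM. The part of those cells in its IGF2 level was not tested.

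Toward hatching, 2 of 7 members rose and 0 fell in hatching and hatched ICM against the earlier ICM stages, where 1.52% of all genes were called and 1.09% rose. MEST rose by 2.09 (SE 0.40, adjusted p = 0.0178) and PEG3 by 1.33 (SE 0.29, adjusted p = 0.0319). MEST was 55.9, 90.9 and 104 CPM in hatching and 83.2, 264 and 89.7 CPM in hatched ICM, above every library of the blastocyst and expanded stages, which reached 35.5 CPM at most. Early ICM held 13.6, 6.73 and 51.1 CPM of MEST, so its replicate 3 came near the lowest hatching library. PEG3 was 35.7, 20.5 and 38.2 CPM in hatching and 30.3, 80.5 and 28.6 CPM in hatched ICM, against 14.8 to 29.8 CPM in blastocyst and expanded ICM, which overlap. It was lowest in early ICM, at 4.02, 4.71 and 15.3 CPM. Hatched ICM replicate 2 was highest for both genes and had the highest sum of 7 primed markers, 960 CPM against 138 and 246. Without it neither passed the threshold (MEST 1.73, adjusted p = 0.0614 and PEG3 1.02, adjusted p = 0.0913). The MEST call also ended without expanded ICM replicate 3. That of PEG3 ended too without blastocyst ICM replicate 2, expanded ICM replicates 1 or 3, or hatching ICM replicates 1 or 3. The median of the 6 members other than PEG10 was 0.53, beside 0.06 over all genes. SNURF differed by 0.68 (SE 0.24, adjusted p = 0.136).

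**Figure D4:**
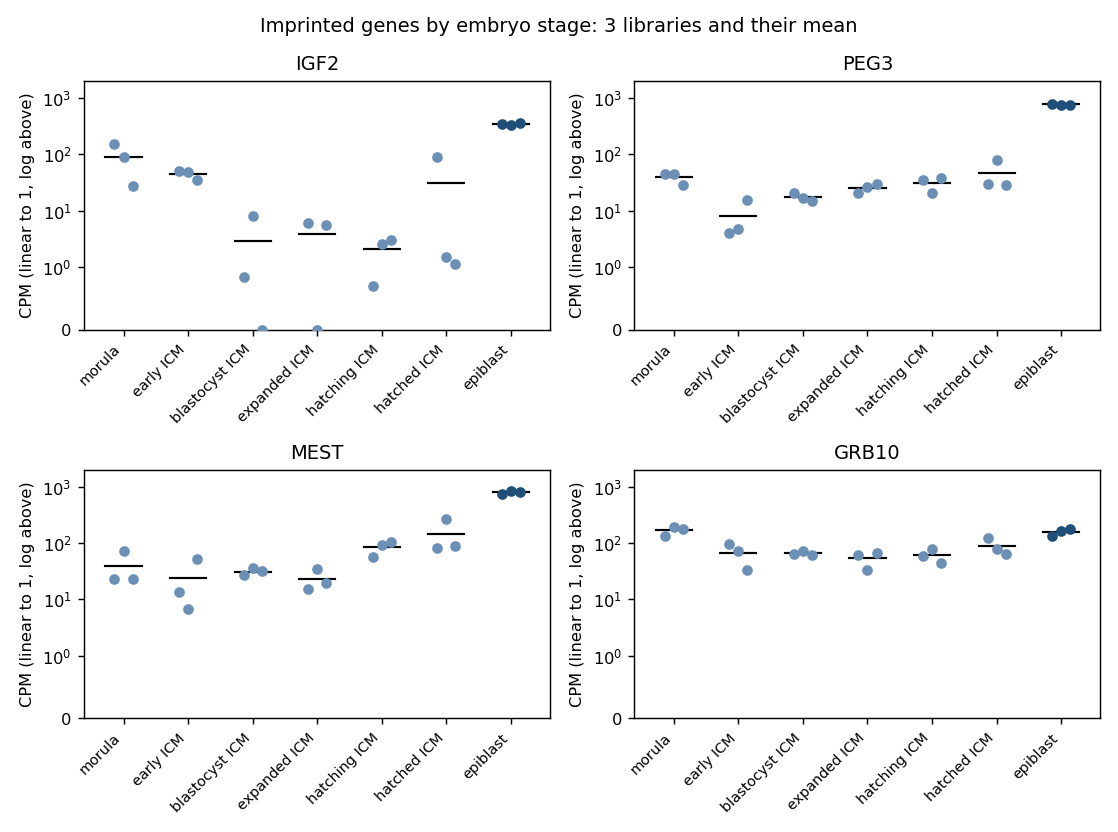
IGF2, PEG3, MEST and GRB10 in embryos. The vertical axes are CPM, linear to 1 and logarithmic above, points are libraries and lines the means of 3. In epiblast IGF2, PEG3 and MEST lie at 331 to 853 CPM, above all ICM libraries, and GRB10 lies at 133 to 175 CPM, overlapping the morulae.

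Among the embryo groups, the postimplantation epiblast held the highest mean IGF2, PEG3 and MEST. IGF2 was 346, 331 and 353 CPM, PEG3 792, 758 and 760 CPM and MEST 738, 853 and 816 CPM. Each lay above all 15 ICM libraries, by 5.43 (SE 0.99, adjusted p = 3.44e-04), 5.13 (SE 0.29, adjusted p = 8.74e-09) and 4.12 (SE 0.39, adjusted p = 1.26e-06) on the log2 scale. GRB10, at 133, 162 and 175 CPM, was 1.24 higher than ICM (SE 0.26, adjusted p = 8.75e-04). NDN, at 7.38, 5.81 and 7.003 CPM, lay below all ICM libraries (log2 fold change -1.27, SE 0.48, adjusted p = 0.0389), a call that ended in 14 of 26 alternatives, among them the fit without any 1 epiblast library and DESeq2 size factors (-1.03, adjusted p = 0.0825). PEG10 was also called higher, and not by DESeq2 (adjusted p = 0.0921). It had 100, 0 and 142 counts in epiblast and 4 over the 15 ICM libraries. It thus passed the embryo filter largely through the epiblast libraries where it was high. In all, 5 members, PEG10 among them, rose and 1 fell, where 44.8% of all genes were called. Without PEG10 the median was 2.68, beside 0.20 over all genes. SNURF did not pass the threshold (-0.08, SE 0.29, adjusted p = 0.865).

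The 6 mesenchyme markers moved with IGF2, PEG3 and MEST here. They summed to 1365 to 1533 CPM in epiblast and 0 to 28.2 CPM in ICM libraries, with PRRX1 at 0 in epiblast and DCN at 0 in all 5 ICM stages. The 7 primed markers summed to 6733 to 6983 CPM in epiblast, and the 8 naive markers to 79.0 to 91.2 CPM. The part of mesenchyme-marked cells in the epiblast levels was not tested.

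Cultured primed cells and epiblast shared some of these levels. In DSY127 and No.40 against epiblast, 2 of 7 members were higher and 2 lower, where 33.7% of all genes were called. The higher ones were SNURF and PEG10, the latter with 2258 to 4897 counts per library against 100, 0 and 142. IGF2 was lower by a log2 fold change of -5.62 (SE 1.201, adjusted p = 5.40e-04). GRB10 was lower by one of -0.79 (SE 0.25, adjusted p = 0.0138), a call that ended when epiblast replicate 2 or 3, DSY127 replicate 1 or 2, or No.40 replicate 1 or 2 was left out alone. PEG3 gave a difference of -0.03 (SE 0.30, adjusted p = 0.965) and MEST one of -0.96 (SE 0.40, adjusted p = 0.0625). NDN gave one of 0.38 (adjusted p = 0.488). With only these 3 groups in the fit, MEST was called lower (-0.82, adjusted p = 1.75e-05) and NDN higher (0.52, adjusted p = 0.0458). That fit called 64.7% of all genes. The median of the members was -0.03, beside 0.02 over all genes, and -0.41 without PEG10.

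Naive cells were compared with hatching and hatched ICM, and 3 of 7 members were higher and 2 lower, where 48.2% of all genes were called. PEG3 was 2.75 higher (SE 0.26, adjusted p = 9.98e-10), and SNURF and PEG10 were also higher. NDN was lower by a log2 fold change of -1.94 (SE 0.33, adjusted p = 1.71e-05). GRB10 was lower by one of -0.66 (SE 0.21, adjusted p = 0.00975), a call that ended without hatching ICM replicate 2, hatched ICM replicate 1 (-0.36), DSY-c2 naive replicate 1 or 3, or N40 naive replicate 2. MEST differed by 0.10 (SE 0.33, adjusted p = 0.853) and IGF2 by -1.69 (SE 0.97, adjusted p = 0.152). The median was 0.10, beside 0.19 over all genes, and -0.28 without PEG10. On the shared scale NDN averaged 8.83 to 15.5 CPM in primed groups, 4.91 to 5.94 CPM in naive groups and 18.1 to 23.7 CPM in these ICM stages, so its naive cells lay further from ICM than its primed cells did. GRB10 in N40 averaged 55.2 CPM primed and 28.3 CPM naive, against 65.7 and 96.2 CPM in these stages, which is also a move away. SNURF, PEG10, PEG3 and MEST lay closer to the ICM means in naive than in primed Tg cells of both lines. For SNURF this did not extend to the other primed cells. DSY127 and No.40 (152 and 172 CPM) lay no further from the ICM means than naive DSY-c2 and N40 (186 and 174 CPM).

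**Figure D5:**
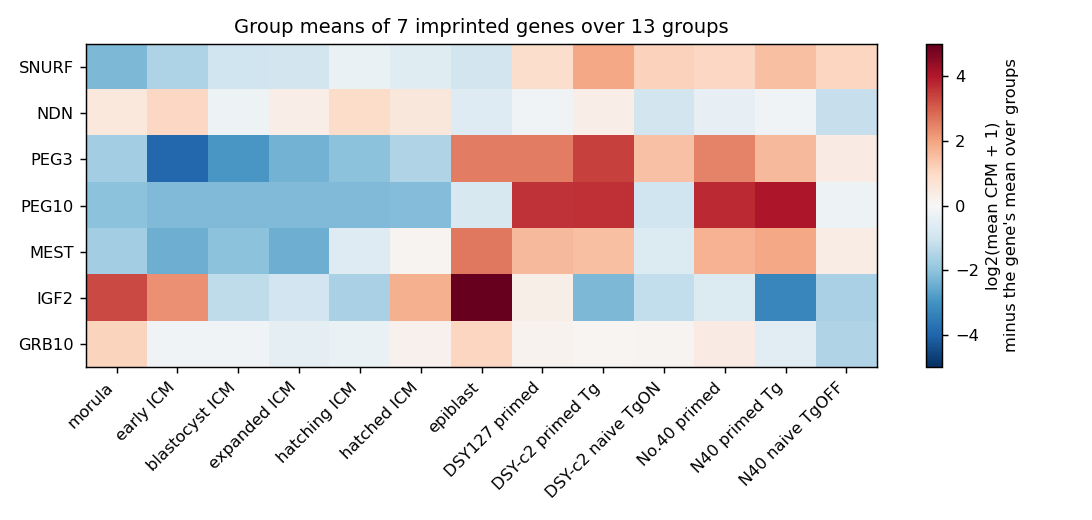
Group means of 7 imprinted genes over 13 groups. Colour is log2 of the mean CPM on the shared scale plus 1, less the gene's mean over groups. PEG10 is high in the 4 primed ESC groups alone, IGF2 is highest in epiblast, and SNURF is higher in all 6 ESC groups than in embryos.

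Other imprinted genes were read from lists by parental origin. Their counts stand beside 29.6% of all genes that rose and 29.3% that fell in the DSY-c2 conversion, and 32.3% and 28.7% in N40. Of 7 other paternally expressed genes, 4 rose and 2 fell in DSY-c2 and 4 rose and 1 fell in N40, with medians of 0.27 and 0.61. L3MBTL1, a chromatin reader, rose by 1.19 and 1.51, and FAM50B, a retrogene of unsettled function, by 1.16 and 1.01. USP29, the neighbour of PEG3, had 73 counts in primed and 833 in naive DSY-c2 libraries (adjusted p = 0.0319), and 0 counts in primed and 839 in naive N40 libraries (adjusted p = 0.00111). It thus went up where PEG3 fell. Of 15 maternally expressed genes tested, 3 rose and 7 fell in DSY-c2 (median -1.55), and 4 rose and 6 fell in N40 (median -0.81), so that 10 of 15 were called in each line, where 58.8% and 61% of all genes were. CDKN1C, an inhibitor of the cell cycle, fell by 3.91 and 1.46. GNAS, a G-protein subunit gene, fell by 2.67 and 1.95, and KCNQ1, a potassium channel gene, by 2.02 and 3.52. Both had low counts, at most 1737 for GNAS and 201 for KCNQ1 in any of the 39 libraries. DLX5, a homeobox gene, rose by 4.38 in N40, with 18 counts in the 3 primed libraries. In epiblast against ICM, 2 of 7 other paternal genes rose and 2 fell, and 6 of 15 maternal genes rose and 0 fell, where 26.1% of all genes rose and 18.7% fell. CDKN1C averaged 470 CPM in epiblast and 0.33 to 11.9 CPM over the ICM stages.

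Genes that maintain methylation imprints were also listed, and 3 of 6 rose and 1 fell in DSY-c2, and 4 rose and 1 fell in N40 (medians 0.20 and 0.48), where 58.8% and 61% of all genes were called. UHRF1, which brings DNMT1 to newly copied DNA, fell by 1.26 (adjusted p = 1.00e-07) and by 2.25 (adjusted p = 2.31e-10). DNMT1, the maintenance methyltransferase, rose by 1.10 (adjusted p = 0.00104) and 1.05 (adjusted p = 0.00136). SETDB1, a histone methyltransferase, rose by 0.31 and 0.78, and TRIM28, its partner at imprinted regions, by 0.23 and 0.58. In epiblast against ICM, 4 of 5 tested rose, where 26.1% of all genes did. ZNF445, a zinc-finger protein that guards imprints, averaged 38.8 to 55.2 CPM in ESC groups and 0.026 to 1.496 CPM in embryo groups on the shared scale. There too, material and cell state cannot be told apart.

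Genes were ranked by how closely their level followed SNURF, as Pearson's r over the 13 group means of log2 CPM, among 8844 candidates. These means share libraries and a split between ESCs and embryos, so r is a description. Among the highest were PRKCSH (0.967), a glucosidase subunit, SPINDOC (0.961), SEPTIN11 (0.960), a cytoskeletal septin, and HNRNPUL2 (0.960). SNRPN had 0.622, NDN -0.484 and UBE3A -0.489. Within the members, PEG3 and MEST were most alike (0.900), PEG10 was most like PEG3 (0.886), SNURF most like PEG10 (0.854), and IGF2 most like GRB10 (0.649). NDN followed none closely, its highest r being 0.170 with GRB10.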

How the data were processed

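Poly(A)+ RNA of 39 marmoset libraries was prepared with the RNeasy Mini and TruSeq Stranded mRNA LT kits, per the labels' protocols. Per the submitters' processing notes, the tools were Trim Galore 0.4.0, STAR 2.5.3a and featureCounts 1.5.2. For build, annotation and strand setting the sources used here give nothing. The authors deposited raw counts per gene in 2 run columns per library, which were summed. Another 6 columns belonged to no sample here and were not used.

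Symbols came from a reference table and covered 12660 gene IDs (41.1%). ESC libraries (18), embryo libraries (21) and all 39 were fitted with edgeR 4.0.16 in R 4.3.3, using filterByExpr, TMM and the robust quasi-likelihood test, on 17957, 16929 and 18756 genes. P-values were adjusted by Benjamini-Hochberg over all genes. Each SE is the size of the log2 fold change divided by sqrt(F). A prior count of 2 entered log2 CPM. The fits were tested on simulated data in which few genes were changed, unlike the conversions, where 58.8% and 61% of genes were called. How the scaling behaves with so many changed genes was not tested. With 3 libraries per group, the spread between libraries limits precision more than depth does. Even numbers made up 65% of counts from 1 to 49 but 50.8% of large counts, and tests were therefore repeated with halved counts.

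Alternatives were DESeq2 (1.42.0) size factors and test, other filters, halved counts, a replicate block, only the groups compared, and leaving out each library. The fit of all 39 libraries for ESC and embryo comparisons was added after the data had been seen. The members and lists were chosen with earlier results of these data known. Named were all members, SNRPN, up to 4 called genes per list with the largest changes, and the 5 genes most like SNURF, of which 1 is not reported here. Genes of the PEG10 and SNURF windows, UBE3A, USP29 and ZNF445 beyond that rule were named after their values were seen. No sequences are shown.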

Additional observations from a re-analysis of the deposited data

Results flagged for a closer look

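The effect of conversion differed between the lines, by a test of the difference itself, for 3 members. The naive effect in DSY-c2 less that in N40 was -0.78 on the log2 scale for PEG3, -0.66 for MEST and 0.95 for GRB10. The TgON and TgOFF marks differ between the lines in the same way, so line and Tg state cannot be told apart. All 3 calls ended in the fit of all 39 libraries (adjusted p = 1 for PEG3 and MEST and 0.906 for GRB10). That of PEG3 ended in 4 of 20 alternatives in all and that of MEST in 12 of 20.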

How the results depend on the processing

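Over the 1307 values of single members under alternatives, 1218 kept their side of the threshold, 73 calls ended, 16 were gained and 0 called values reversed. Values without a call could change sign within the 1218. GRB10 in the DSY-c2 conversion, at 0.14, ranged from -0.06 to 0.38. Of 7 members, the fit of all 39 libraries called 3 in the DSY-c2 conversion in place of 5, 0 in the difference between the conversions in place of 3, 0 in DSY-c2 primed against DSY127 in place of 2, and 0 in N40 primed against No.40 in place of 3. That fit also called fewer of all genes in ESC comparisons. It called 9.32% in place of 58.8% in the DSY-c2 conversion and 0.064% in place of 15.1% in the difference. It called 0.592% in place of 1.88% in DSY-c2 primed against DSY127, and 1.42% in place of 21.9% in N40 primed against No.40. The DESeq2 test called 4 members in DSY-c2 primed against DSY127, where it called 3.04% of all genes. With only the groups compared, 0 were called from morula to early ICM and 0 toward hatching, in place of 2 each. Those fits called 1.64% and 0.21% of all genes, in place of 6.16% and 1.52%. Leaving out each library in turn gave 5 in the DSY-c2 conversion, 6 to 7 in N40, 1 to 3 in their difference, 2 in DSY-c2 primed against DSY127, 3 to 5 in N40 primed against No.40, 1 to 2 from morula to early ICM and 0 to 2 toward hatching. Calls over all genes moved as well when libraries were left out. They were 146 to 262 in place of 337 in DSY-c2 primed against DSY127, and 62 to 445 in place of 257 toward hatching. The cause of these changes was not tested.

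In the 6 pairs of groups checked, libraries with the same replicate number did not deviate together (correlations of -0.209 to 0.121, and 2 of 18 correlated best with their own number), so the numbers were not read as pairing samples. Other pairs of groups were not checked. With the replicate block, 1 member was called in the difference (adjusted p = 0.0543 for PEG3 and 0.186 for MEST), 0 in DSY-c2 primed against DSY127 and 1 toward hatching. DSY-c2 primed and naive libraries share 1 number only. With the block 0.0557% of all genes were called in DSY-c2 primed against DSY127, in place of 1.88%. The block gave 7.08% in place of 15.1% in the difference, and 0.691% in place of 1.52% toward hatching.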
